A study of Mus musculus with 2 samples.

Results

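The translation initiation factors of mouse liver were followed in 2 RNA-seq libraries, 1 from WT mice and 1 from Rcrin conditional knockout mice. Members were taken by name and place alone: protein-coding genes on autosomes whose symbol begins with Eif and a number from 1 to 6, without the eIF2 kinases (symbols beginning with Eif2ak). This gave 48 genes of 55421 listed in the count tables, and 46 of them had a mean of at least 50 counts over both libraries and were compared. The WT mice carried Rcrin alleles flanked by loxP sites, and the labels give liver and a time of 8 weeks for both groups. The sources used here give neither strain nor sex, nor the Cre driver, the cells that lost Rcrin or how many mice went into a library. Rcrin's own transcript level, which would check the genotype labels, was not analysed here.

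Initiation factors bring the first methionyl-tRNA, the small ribosomal subunit and the mRNA together. eIF2 carries the initiator tRNA as a complex with GTP and is recharged by its exchange factor eIF2B, which stress kinases block by phosphorylating the alpha subunit of eIF2. eIF1, eIF1A and the many-subunit eIF3 hold the small subunit open for scanning, and eIF4F (the cap-binding eIF4E, the scaffold eIF4G and the helicase eIF4A) attaches the capped mRNA. eIF5 and eIF5B then trigger GTP hydrolysis and subunit joining. The liver makes most plasma proteins, and there mTORC1 and the eIF2 kinases are known to tie initiation to feeding and amino acid supply.

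The libraries held 65121596 (WT) and 63587567 (knockout) counts. All 8 hepatocyte markers checked were abundant in both (26475 to 3350104 counts in WT, 20000 to 5599153 in the knockout). They took 9.18% of WT and 13.6% of knockout counts. Singly they did not move together, with log2 ratios of knockout over WT from -0.32 to 0.83. Every marker checked for Kupffer, endothelial, stellate, bile duct, lymphoid, neutrophil and erythroid cells had counts in both libraries. The largest sum among these lists, of the 4 erythroid markers, was 0.187% of WT and 0.0552% of knockout counts. Kupffer cell markers took 0.0433% and 0.0357%, B and plasma cell markers 0.00372% and 0.00103%, and neutrophil markers 0.00386% and 0.00166%. Single markers within a list went different ways. Their log2 ratios of knockout over WT ran from -1.30 to 1.02 for Kupffer cells and from -2.87 to 0.55 for erythroid cells. For B and plasma cells they ran from -2.20 to 0.81, and for neutrophils from -3.08 to 0.08. The part of these cell types in the results below was not tested. In bulk RNA, fewer cells of a type and less RNA per cell cannot be told apart. With 1 library per genotype there is no estimate of the spread between mice, so no test was made. Each difference is one between these 2 libraries, and each 95% interval covers counting error only.

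As a group the initiation factor genes stood at nearly the same level in both libraries. Together the compared members took 0.391% of WT counts (254814) and 0.399% of knockout counts (253867). Their median log2 ratio of knockout over WT was 0.03, against -0.01 over all 12064 genes compared. Of the 46 members, 24 lay above 0 and 22 below. Past a limit of 2-fold, 2 were higher in the knockout library, where 8.45% of all genes were, and 1 was lower, where 8.61% of all genes were. Either way, 17.1% of all genes were past it. The higher ones were Eif2s1 and Eif2b1, and the lower one was Eif3j1. Within 1.5-fold lay 33 members (71.7%), against 62.2% of all genes. By 1.5-fold, 9 members were higher (19.0% of all genes) and 4 lower (18.8%, or 37.8% of all genes either way). Genes of at least 3 exons with counts in both libraries gave a background of 7.64% higher and 7.62% lower by 2-fold (15.3% together) and of 36.3% past 1.5-fold, and the same 3 members are in it. The exact interval, for counting error alone, left out 0 for 41 members, as it did for 79.3% of all genes. For some of the 41 it was about as wide as the ratio was large, as for Eif1a (0.11, interval 0.0038 to 0.21).

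**Figure D1:**
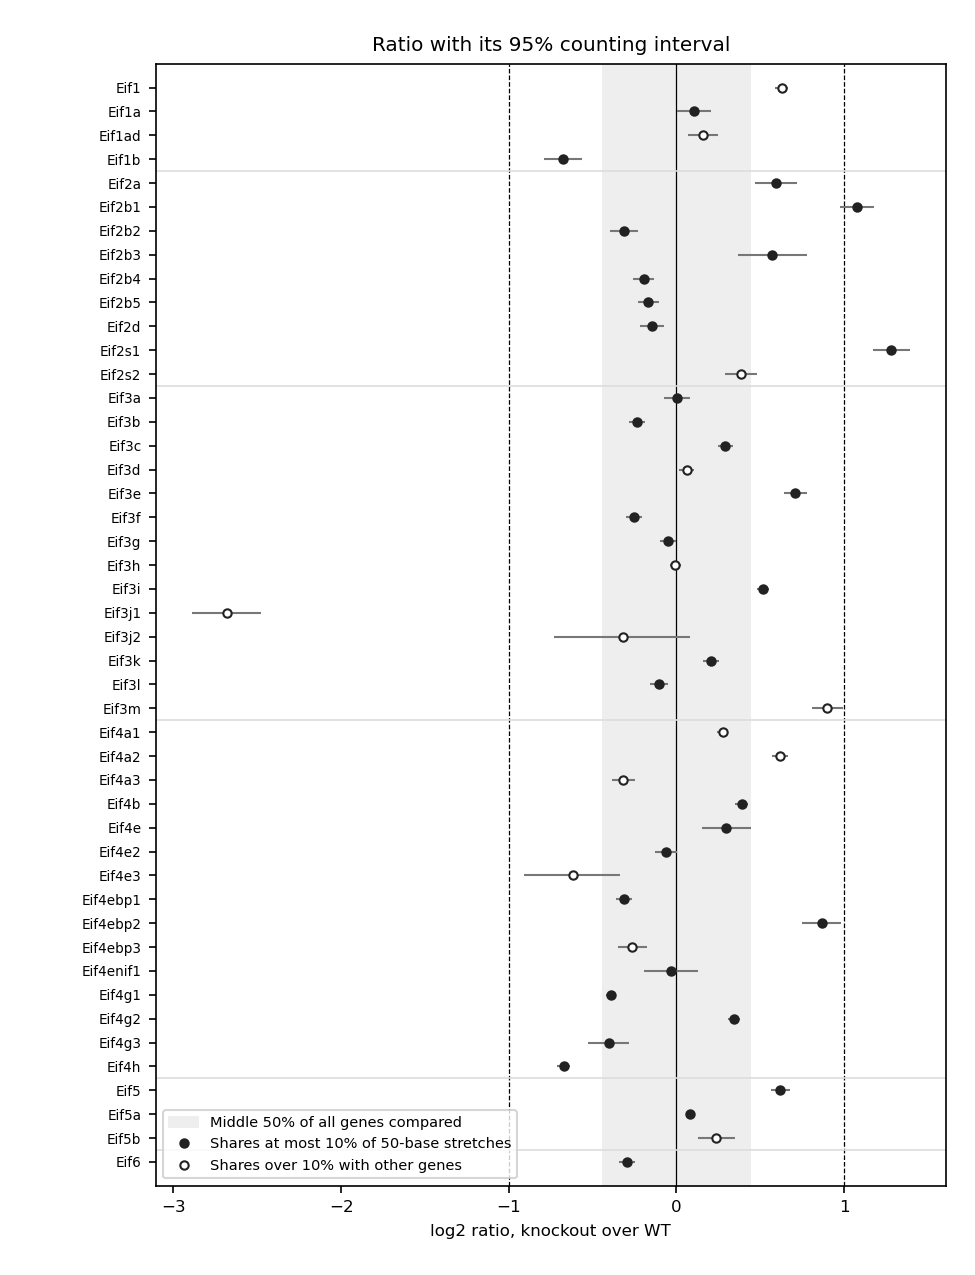
log2 ratio of knockout over WT for each of the 46 initiation factor genes compared, with its exact 95% counting interval (bars); dashed lines mark 2-fold, the grey band the middle 50% of all genes compared, and open points the genes of which over 10% of 50-base stretches also stand in other genes. Only Eif2s1 (1.28), Eif2b1 (1.08) and Eif3j1 (-2.68) lie beyond the dashed lines.

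The promoters of the 3 genes past 2-fold are shown so that short regulatory motifs in them can be set beside those of the other members. Set beside them are 3 members of the cap-binding step that hold the E-box CACGTG, a site bound by Myc and other basic helix-loop-helix factors. RefSeq promoters (GRCm38.p6, 250 bases before to 50 after a start) were found for 35 of the 46 members. The sequences below are the 250 bases before the start, 5′ to 3′ along the gene, with E-boxes in capitals.
Eif2s1, chr12:78861822-78862071, + strand: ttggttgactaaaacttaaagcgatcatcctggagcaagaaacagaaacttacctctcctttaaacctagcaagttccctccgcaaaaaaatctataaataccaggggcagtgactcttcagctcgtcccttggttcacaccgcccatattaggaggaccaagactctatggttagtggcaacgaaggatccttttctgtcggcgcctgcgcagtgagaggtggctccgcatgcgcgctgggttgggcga
Eif2b1, chr5:124579132-124579381, - strand: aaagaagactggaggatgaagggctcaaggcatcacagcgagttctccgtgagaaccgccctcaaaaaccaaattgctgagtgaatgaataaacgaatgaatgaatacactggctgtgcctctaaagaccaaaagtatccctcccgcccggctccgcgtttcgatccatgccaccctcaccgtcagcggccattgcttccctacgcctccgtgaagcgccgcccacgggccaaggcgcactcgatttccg
Eif3j1, chr2:122028330-122028579, + strand: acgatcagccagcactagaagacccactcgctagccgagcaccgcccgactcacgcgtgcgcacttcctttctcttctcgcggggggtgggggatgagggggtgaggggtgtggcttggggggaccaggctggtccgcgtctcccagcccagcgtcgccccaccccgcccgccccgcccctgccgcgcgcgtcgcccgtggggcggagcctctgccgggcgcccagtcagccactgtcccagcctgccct
Eif4e, chr3:138527018-138527267, + strand, the second of 2 starts in the table: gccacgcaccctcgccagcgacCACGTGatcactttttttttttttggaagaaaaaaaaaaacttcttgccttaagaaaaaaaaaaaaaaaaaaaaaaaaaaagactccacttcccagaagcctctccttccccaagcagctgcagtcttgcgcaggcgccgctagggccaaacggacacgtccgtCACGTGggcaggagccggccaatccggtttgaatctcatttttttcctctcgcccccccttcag
Eif4g1, chr16:20672477-20672726, + strand: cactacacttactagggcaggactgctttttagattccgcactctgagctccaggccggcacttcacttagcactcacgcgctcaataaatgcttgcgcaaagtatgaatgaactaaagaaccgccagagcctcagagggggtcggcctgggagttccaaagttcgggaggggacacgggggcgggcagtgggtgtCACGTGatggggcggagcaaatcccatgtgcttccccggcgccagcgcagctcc
Eif4h, chr5:134639410-134639659, - strand: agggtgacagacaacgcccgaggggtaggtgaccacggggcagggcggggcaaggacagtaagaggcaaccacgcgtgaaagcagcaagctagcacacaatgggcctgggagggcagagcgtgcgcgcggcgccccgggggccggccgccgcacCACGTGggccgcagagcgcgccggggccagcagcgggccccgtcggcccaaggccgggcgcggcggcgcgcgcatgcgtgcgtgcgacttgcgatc

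In Eif4e the E-boxes begin 228 and 64 bases before the start, in Eif4g1 54 and in Eif4h 96. The 3 genes past 2-fold hold no E-box in this window. They also hold neither the ETS-type motif CCGGAAG, nor CCAAT, nor the ATF4-type motif TGATGNAA, searched on both strands and over all 300 bases; no motif here contains another. Among all 47 promoters of the members, 23.4% held an E-box, against 9.90% of 11907 promoters of the genes compared and 7.15% of all 32851 in the table. CCGGAAG stood in 34.04% (16 of 47), against 17.1% and 8.86%. CCAAT stood in 25.5%, against 37.4% of both backgrounds. TGATGNAA stood in 0 of the 47 and in 2.27% of the promoters of genes compared. Median promoter GC content was 62.7% for the members and 60.3% for the genes compared. The 9 members with an E-box had a median log2 ratio of 0.00096 (from -0.68 for Eif1b to 0.30 for Eif4e), and the 26 members with a promoter but no E-box one of 0.11. For CCGGAAG the medians were -0.03 for the 13 members with it and 0.22 for the 22 without. For CCAAT they were 0.03 for 12 members and 0.06 for 23. A match is a description of the letters, not of binding.

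The ternary complex and its exchange factor held both of the genes that were higher by 2-fold, Eif2s1 and Eif2b1. With the GC trend of all genes removed, both came to lie within that limit, at 0.90 and 0.99 in log2. Eif2s1 encodes the alpha subunit of eIF2, which the stress kinases phosphorylate, and lies on GRCm38 chromosome 12 from 78861819 to 78887010. It had 978 counts in WT and 2242 in the knockout, a log2 ratio of 1.28 (interval 1.17 to 1.39) or 2.43-fold higher. Eif2s2, the beta subunit, had 1625 and 2000 counts (log2 ratio 0.38). The gamma subunit, which binds GTP and the tRNA, is X-linked in Eif2s3x and so outside the rule, and had 3100 and 3776 counts (0.37). The subunits of this trimer thus differed unequally. Relative to Eif2s2, Eif2s1 shifted by 0.90 in log2 (interval 0.75 to 1.04), a comparison within each library that no scaling touches. The ratio of the beta to the gamma gene shifted by 0.01 (interval -0.10 to 0.13). On the scale of TPM, which divides counts by transcript length and by the library's sum, Eif2s1 was the lowest of the trimer in WT at 7.41, below Eif2s2 (16.5) and Eif2s3x (21.9). In the knockout library it stood at 16.7, nearer to Eif2s2 (19.96) and Eif2s3x (26.3). The Y-linked paralog Eif2s3y, outside the rule as well, had 306 and 522 counts (0.85). Of the stretches of 50 bases in the transcripts of Eif2s1, 5.76% also stand in other genes, chiefly in processed pseudogenes such as Gm12734 (12 and 10 counts).

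eIF2B has regulatory subunits (alpha, beta and delta, from Eif2b1, Eif2b2 and Eif2b4), which sense phosphorylated eIF2, and catalytic ones (gamma and epsilon, from Eif2b3 and Eif2b5). Eif2b1 (chromosome 5 from 124570213 to 124579131) had 1237 counts in WT and 2460 in the knockout. Its log2 ratio was 1.08 (interval 0.98 to 1.18), so the interval reached below 2-fold. Eif2b3 was the only other member of the complex on the higher side, with 340 and 476 counts (0.57, interval 0.37 to 0.78). Eif2b2 (2703 and 2055 counts, -0.31), Eif2b4 (4404 and 3626, -0.20) and Eif2b5 (4211 and 3535, -0.17) stood slightly lower. Against Eif2b5, the catalytic subunit that carries the exchange activity, Eif2b1 shifted by 1.24 in log2 (interval 1.13 to 1.36) and Eif2b3 by 0.74 (0.52 to 0.95). The change of Eif2b4 against Eif2b5 was -0.03, with an interval that held 0 (-0.12 to 0.06). Summed over the complex, the counts were level at a log2 ratio of -0.00022. Per length Eif2b3 was by far the lowest subunit gene in both libraries, at 2.34 and 3.22 TPM, and Eif2b4 the highest, at 56.1 and 45.4 TPM. Such levels depend on the length taken for each gene, here its longest protein-coding transcript.

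**Figure D2:**
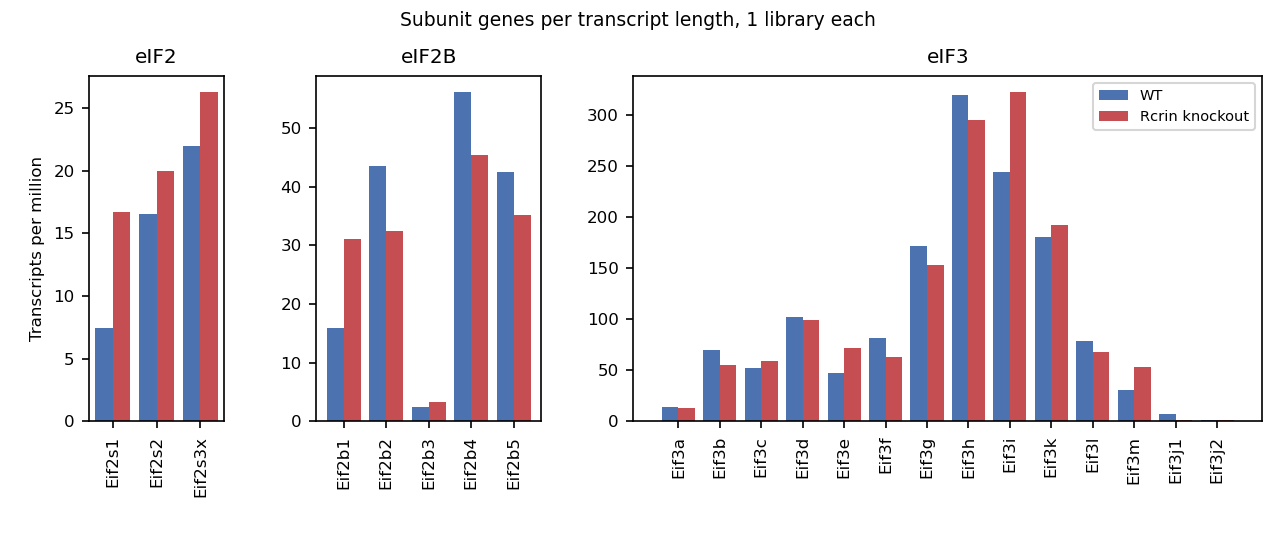
Level per transcript length (bars, TPM, from 0) of the subunit genes of eIF2, eIF2B and eIF3 in the WT and the knockout library, 1 library each, so no error bar can be drawn; each panel has its own scale. Eif2s1 moves from 7.41 to 16.7 TPM and Eif2b1 from 15.9 to 31.0 TPM, while the bars of most eIF3 subunits are close in height.

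Outside these complexes, Eif2a and Eif2d encode single proteins that can deliver initiator tRNA without eIF2; Eif2a is not the alpha subunit of eIF2, despite its symbol. Eif2a had 859 and 1221 counts (log2 ratio 0.59) and Eif2d 3580 and 3051 (-0.15). Over the 9 eIF2 genes compared the median was 0.38, with 2 higher and 0 lower by 2-fold, beside 8.45% and 8.61% of all genes. That median was 0.041 with the GC trend removed, where 0 were higher, 0.12 at a mean of at least 500 counts and 0.21 without genes that share over 10% of their stretches.

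The factors that keep the small subunit scanning went different ways between paralogs. Eif1, which guards the choice of start codon, had 9285 counts in WT and 13524 in the knockout (log2 ratio 0.63, interval 0.59 to 0.67). Its paralog Eif1b had 1680 and 991 counts (-0.68, interval -0.79 to -0.56). Per length Eif1 made up 81.2% of the pair in WT and 91.4% in the knockout, and the ratio between the genes shifted by 1.30 in log2 (interval 1.18 to 1.43). Both have 4 exons, and 19.2% of the 50-base stretches of Eif1 also occur in other genes, chiefly Emd and processed pseudogenes. Emd itself had 1719 and 885 counts. The eIF1A genes were close to level: Eif1a had 1559 and 1581 counts (0.11) and its X-linked counterpart Eif1ax, outside the rule, 1473 and 1542 (0.15). Eif1ad, which encodes a protein with an eIF1A-like domain and shares 13.2% of its stretches with Banf1, had 2062 and 2169 (0.16).

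eIF3 is the largest of the factors, a scaffold on the small subunit that binds eIF1, eIF4G and mRNA. Apart from Eif3j1 its subunit genes showed modest ratios. Over the 12 subunit genes without the j pair the median log2 ratio was 0.03, from -0.25 (Eif3f) to 0.90 (Eif3m). Of them 0 were past 2-fold, beside 17.1% of all genes. The RNA-binding subunit Eif3a stood at 41.7 CPM, a count scaled to library size with TMM, in both. Its 2762 and 2605 counts gave 0.00096 in log2 (interval -0.08 to 0.08). Eif3h (16031 and 15038 counts, -0.01) was as level, and its interval also held 0 (-0.04 to 0.03). With the GC trend of all genes removed, Eif3a came to -0.37 and Eif3h to 0.03. Among the rest Eif3d, which can itself bind the cap of some mRNAs, had 7530 and 7401 counts (0.06). An antisense gene, Gm17638, overlaps 37.2% of it, and without a known strand setting their reads cannot be told apart. Eif3g, a subunit that takes part in scanning, had 7297 and 6640 (-0.05). Slightly lower stood the core subunit Eif3b (7997 and 6398 counts, -0.24), Eif3f (7888 and 6234, -0.25) and Eif3l (5885 and 5163, -0.10). On the higher side were Eif3c (6825 and 7879, 0.29), Eif3k (6331 and 6878, 0.20) and Eif3i (10587 and 14252, 0.51).

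Eif3e and Eif3m, of the group of subunits with PCI domains that form the structural core, led this list. Eif3m had 1517 counts in WT and 2666 in the knockout (log2 ratio 0.90, interval 0.81 to 0.99). Eif3e had 2745 and 4230 (0.71, interval 0.64 to 0.78). Relative to Eif3a the shift was 0.90 (0.78 to 1.02) for Eif3m and 0.71 (0.60 to 0.81) for Eif3e. Their transcripts are among those of low GC content in the list, at 41.1% for Eif3m and 38.4% for Eif3e, and with the trend of all genes along GC content removed their values were 0.47 and 0.20. The processed pseudogene Gm7658 holds 17.2% of the 50-base stretches of Eif3m and had 0 and 98 counts. Per length the subunit genes were far from equal in either library, from 13.9 and 12.9 TPM for Eif3a to 320 and 295 TPM for Eif3h and 243 and 322 TPM for Eif3i.

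Eif3j1 showed the largest difference of all 46 members. eIF3j sits loosely at the decoding centre of the small subunit, helps eIF3 bind it and takes part in recycling ribosomes. Eif3j1 (ENSMUSG00000027236, GRCm38 chromosome 2 from 122028546 to 122056598, 8 exons) had 1517 counts in WT and 223 in the knockout. Scaled, this was 22.9 and 3.57 CPM, a log2 ratio of -2.68 (interval -2.89 to -2.48) or 6.40-fold lower. No other member compared lay beyond -0.68. The value depends on how reads were assigned, since 50.9% of the 50-base stretches of its transcripts also stand in other genes. They are shared mainly with the single-exon copy Eif3j2 (36.6%), with Spg11 (15.1%), whose transcripts overlap it, and with the pseudogene Gm3650 (8.11%). The sources used here do not say how such reads were counted, and the part of this in the difference was not tested.

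The raw counts of those genes, WT first, do not show how shared reads were assigned. Eif3j2, on chromosome 18 from 43475418 to 43477796, had 122 and 92 counts (log2 ratio -0.32), with an interval that held 0 (-0.73 to 0.08). Of its stretches 91.8% are shared. Spg11 had 522 and 502 counts and Gm3650 58 and 33. Summed over Eif3j1 and Eif3j2, a value that does not depend on the split between them, there were 1639 and 315 counts (log2 ratio -2.29, interval -2.47 to -2.12), 4.90-fold lower. The sum still depends on whether shared reads were left out or given to Spg11 or Gm3650. Against Eif3a, the count ratio of Eif3j1 was 0.549 in WT and 0.0856 in the knockout.

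The cap-binding complex eIF4F was mixed. Eif4g1, the main scaffold, had the highest counts among the eIF4 genes, 23288 in WT and 16741 in the knockout (log2 ratio -0.39, interval -0.42 to -0.36). Its relative Eif4g2 (also called DAP5), which lacks the eIF4E-binding part, had 12127 and 14507 counts (0.34). Eif4g3 had 1308 and 931 (-0.40). Per length Eif4g1 made up 71.1% of the 3 scaffolds in WT and 60.6% in the knockout, and Eif4g2 26.1% and 37.0%. The ratio of Eif4g1 to Eif4g2 shifted by -0.73 in log2 (interval -0.78 to -0.69). With the GC trend of all genes removed, the 2 genes lay closer, Eif4g1 at -0.21 and Eif4g2 at -0.007.

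Among the cap-binding proteins themselves, Eif4e stood slightly higher, Eif4e2 close to level and Eif4e3 lower. Eif4e had 709 and 821 counts (log2 ratio 0.30, interval 0.15 to 0.44). The processed pseudogene Gm7327 shares 5.53% of the stretches of Eif4e and had 82 counts in WT and 0 in the knockout. The part of this in the Eif4e difference was not tested. Eif4e came to 0.016 with the GC trend of all genes removed. Eif4e2 (also called 4EHP), a cap-binding protein known for repressing mRNAs, had 3781 and 3413 counts (-0.06), with an interval that held 0. Eif4e3, the rarest, had 269 and 165 counts (-0.62, interval -0.91 to -0.33), and Gm20696 shares 11.5% of its stretches. Per length Eif4e2 made up 81.4% of the 3 in WT and 81.0% in the knockout, and Eif4e 10.6% and 13.6%. Eif4enif1 (4E-T), which carries eIF4E to the nucleus and to P-bodies, had 675 and 622 counts (-0.03, interval -0.19 to 0.13).

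Among the helicases, Eif4a1 had 13762 and 15704 counts (log2 ratio 0.28) and Eif4a2 5726 and 8276 (0.62, interval 0.57 to 0.67). Eif4a3 belongs to the exon junction complex rather than to initiation and had 3763 and 2849 counts (-0.32). The ratio of Eif4a2 to Eif4a1 shifted by 0.34 in log2 (interval 0.28 to 0.40). With the GC trend of all genes removed, Eif4a2 came to 0.21, Eif4a1 to 0.19 and Eif4a3 to -0.18. All 3 share over 10% of their 50-base stretches with other genes, 28.4% for Eif4a1. The cofactors that stimulate eIF4A went apart. Eif4b had 10775 and 13290 counts (0.39) and Eif4h 13220 and 7812 (-0.67, interval -0.71 to -0.63), so that Eif4h stood above Eif4b in WT counts and below it in the knockout. Their ratio shifted by -1.06 (interval -1.12 to -1.01). Little of this pair is shared with other genes (1.12% and 0.108% of stretches).

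The 4E-binding proteins, which mTORC1 phosphorylates and which otherwise hold eIF4E away from eIF4G, also parted. Eif4ebp1 had 7823 counts in WT and 5941 in the knockout (log2 ratio -0.31, interval -0.36 to -0.26). Eif4ebp2 had 939 and 1613 (0.87, interval 0.75 to 0.98), the largest higher value among the eIF4 genes. Eif4ebp3 had 2546 and 1999 (-0.26), but 65.5% of its stretches stand in the overlapping gene AC115631.1, which had 383 and 430 counts. Summed, the 3 genes had 11308 and 9553 counts (-0.16, interval -0.20 to -0.12). Per length Eif4ebp2 made up 2.16% of them in WT and 4.69% in the knockout, so Eif4ebp1 (52.2% and 50.1%) and Eif4ebp3 (45.6% and 45.2%) dominated both libraries. The ratio of Eif4ebp2 to Eif4ebp1 shifted by 1.18 in log2 (interval 1.05 to 1.31). Eif4ebp1 exceeded Eif4e by 11.0 counts to 1 in WT and 7.24 to 1 in the knockout, a shift of -0.61 (interval -0.76 to -0.45). Per length, it exceeded Eif4e by 27.6 to 1 in WT and 18.1 to 1 in the knockout. With the GC trend of all genes removed, Eif4ebp1 came to -0.26, Eif4ebp2 to 1.05 and Eif4e to 0.016. The genes of the 4E-binding proteins have 3 to 5 exons.

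Of the late factors, Eif5, which makes eIF2 hydrolyse its GTP, had 4183 and 6052 counts (log2 ratio 0.62, interval 0.56 to 0.68). Eif5b, the GTPase of subunit joining, had 1309 and 1455 (0.24), and shares 14.3% of its stretches with Rev1. Eif5a, known chiefly for elongation through stalling motifs, had 20511 and 20477 counts (0.08, interval 0.06 to 0.11) and the highest mean count of any member. Eif6, which keeps the large subunit from joining early, had 8543 and 6569 counts (-0.29). Neither gene left out for low counts had enough reads to compare: Eif4e1b was listed at 0 in both libraries, and Eif5a2 had 0 counts in WT and 12 in the knockout (mean 6.0). The member just inside the limit of 50 counts was Eif3j2, with a mean of 107.

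**Figure D3:**
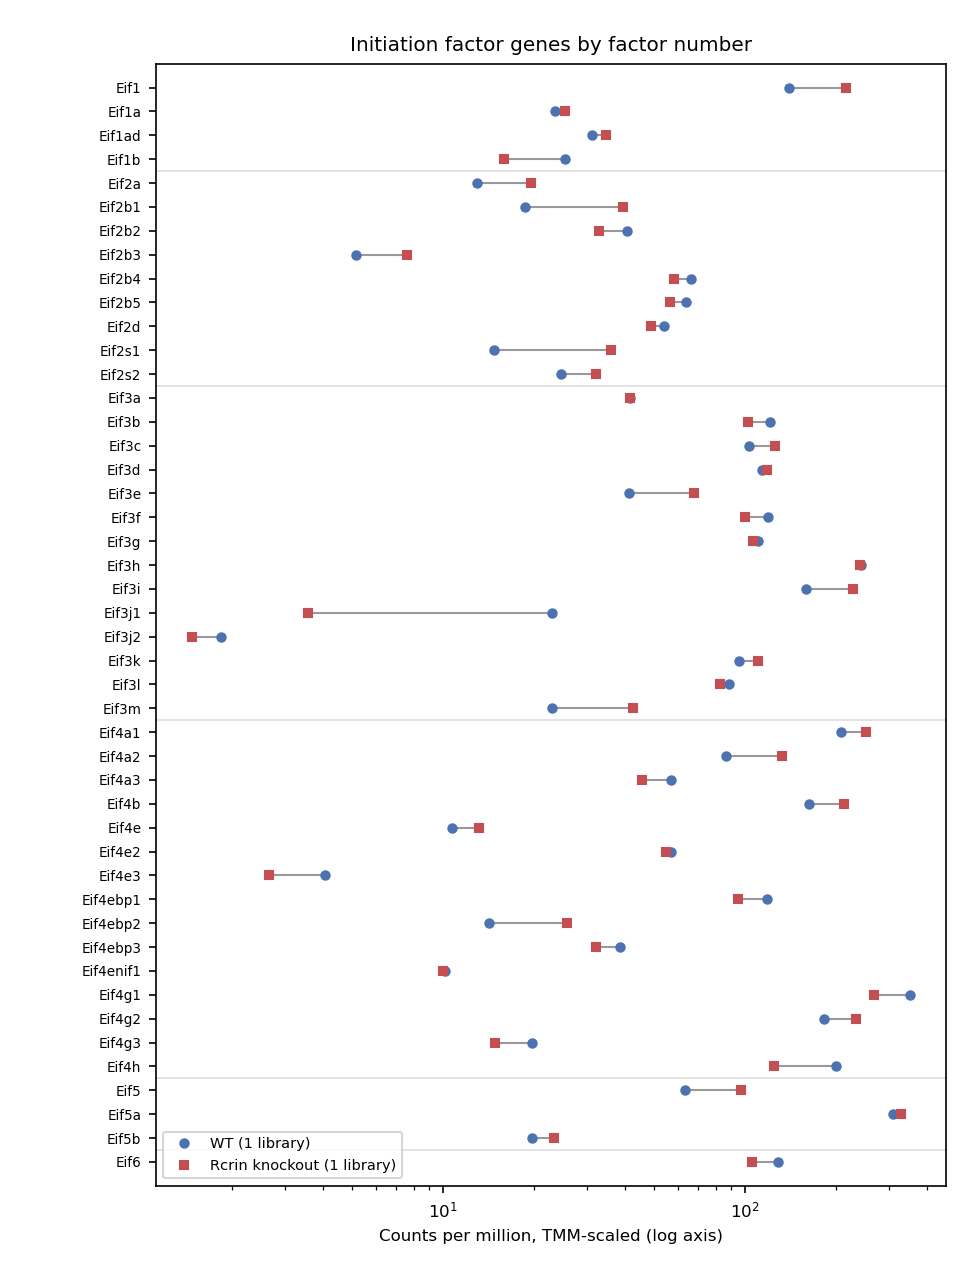
Level of each compared initiation factor gene (CPM after TMM scaling, log axis) in the WT library (circles) and the knockout library (squares), grouped by factor number. Levels run from Eif3j2 (1.84 and 1.47 CPM) up to Eif4g1 in WT (351 CPM) and Eif5a in the knockout (328 CPM), and the widest gap between the libraries is that of Eif3j1.

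Ratios of the members varied with the GC content of their transcripts, as they did across all genes compared. Spearman's rho between GC content and log2 ratio was -0.47 over the 46 members and -0.33 over 12059 genes. Genes are not independent replicates, so this is a description of the 2 libraries, which were made with the same kit per the labels. Of 22 members below the median GC content of all genes compared (50.8%), 16 lay above 0, with a median of 0.32. Of the 24 at or above it, 8 lay above 0, with a median of -0.18. The same split over all genes put 63.0% and 35.5% of them above 0, with medians of 0.21 and -0.21. Low-GC members on the higher side included Eif3e, Eif3m, Eif4a2, Eif5 and Eif2s1, and high-GC members on the lower side included Eif4g1, Eif4h and Eif2b2.

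With the GC trend of all genes removed, the rho over the members was -0.0025. Within 1.5-fold lay 38 of the 46, against 33 before, and the share of all genes was not taken on this scale. Past 2-fold there was then 1 higher member (7.46% of all genes) and 1 lower (8.29%). Eif2s1 came to 0.90 and Eif2b1 to 0.99, both just within the limit, and Eif4ebp2 moved past it to 1.05. Eif3j1 stayed the only lower one at -2.45. For 8 members the sign changed: Eif1a, Eif2b4, Eif2s2, Eif3a, Eif3g, Eif3h, Eif4g2 and Eif5b. In the ternary complex Eif2s2 came to -0.04 and Eif2s3x to 0.04, with Eif2s1 still apart. Of the eIF3 genes without the j pair, Eif3i was then the highest at 0.73. Eif4a2 came to 0.21, Eif5 to 0.23 and Eif2a to 0.19, nearer to 0 than before. Eif3a came to -0.37 and Eif4e3 to -0.89, farther from it. Base composition as a cause of the differences was not tested.

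**Figure D4:**
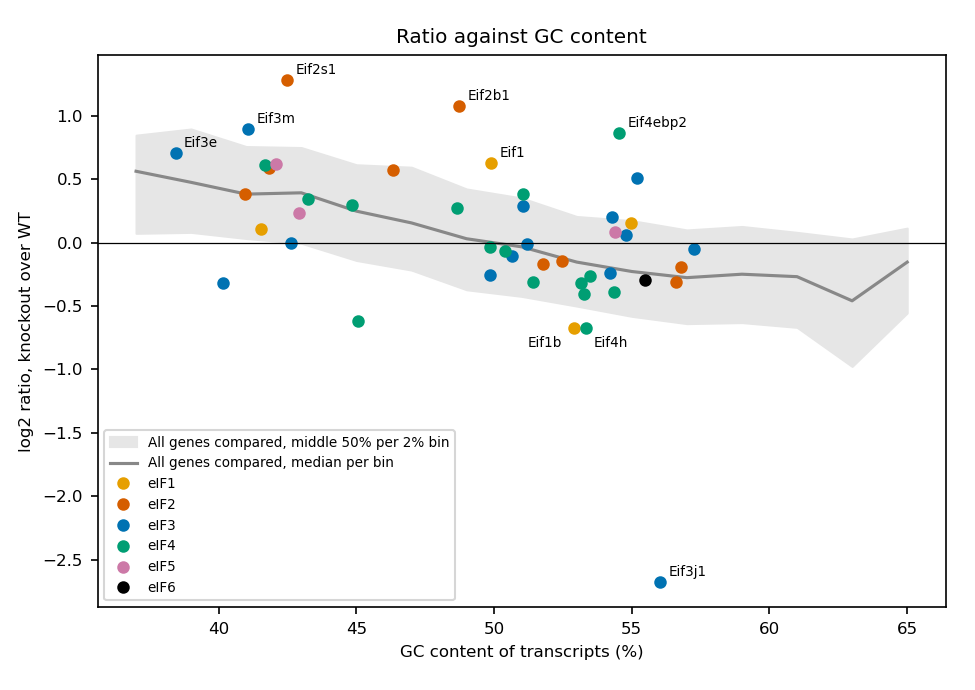
log2 ratio of knockout over WT against transcript GC content for the 46 members (points, coloured by factor), with the median (line) and middle 50% (band) of all genes compared in bins of 2% GC. The band of their own bin holds 33 members, 8 lie above it (Eif1, Eif2b1, Eif2s1, Eif3i, Eif3k, Eif3m, Eif4b and Eif4ebp2) and 5 below (Eif1b, Eif3j1, Eif3j2, Eif4e3 and Eif4h).

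Exon number showed less. The rho between exon number and log2 ratio was 0.12 over the members, which have a median of 11 exons against 9 for all genes. Of the 5 members under 5 exons (Eif1, Eif1b, Eif3j2, Eif4ebp2 and Eif4ebp3), 2 lay above 0 and 3 below, and all had counts in both libraries. In all, 14 members share over 10% of their 50-base stretches with other genes. Among the other 32, which leave out Eif3j1, 2 were higher by 2-fold and 0 lower, beside 8.45% and 8.61% of all genes. Their median was -0.02.

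The genes that act on these factors were followed in lists chosen by role, with the same median and limit. Of 12 genes of the eIF2 kinases and phosphatases, 0 were higher and 1 lower by 2-fold, beside 8.45% and 8.61% of all genes, with a median of 0.04. The lower one was Impact, which restrains the amino acid sensor Gcn2, with 237 and 16 counts (log2 ratio -3.76, interval -4.63 to -3.07). Eif2ak2 (PKR) was the highest of the list, with 207 and 291 counts (0.58). The endoplasmic reticulum kinase Eif2ak3 (PERK) had 860 and 534 counts (-0.60). Eif2ak1, the heme-regulated kinase, had 2719 and 2270 (-0.17) and Eif2ak4 (Gcn2) 247 and 225 (-0.05). None of the kinase genes was past 2-fold.

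Upstream of eIF4E, 19 genes of mTORC1 and MNK signalling had a median of -0.07, with 1 higher and 0 lower by 2-fold, beside the same 8.45% and 8.61%. That one was Tsc1, part of a complex that restrains mTORC1, with 172 and 399 counts (log2 ratio 1.30). Its partner Tsc2 was the lowest of the list, with 2869 and 1736 counts (-0.64). The kinase Mtor itself had 1760 and 1682 counts (0.02). Among 20 genes for partners at the poly(A) tail and in scanning the median was 0.06, from Angel1 (569 and 212 counts, -1.34), a member of a family of deadenylase-like proteins and the only gene of this list past 2-fold (17.1% of all genes either way), to Caprin1 (4302 and 8007 counts, 0.98), a stress granule protein.

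Of 18 genes for elongation and release factors 0 were past 2-fold, beside 17.1% of all genes. Their median was 0.07, from the mitochondrial factor Tufm (-0.43) to its exchange factor Tsfm (0.93). Eef1a1, which brings aminoacyl-tRNA to the ribosome, had 248773 and 296153 counts (0.34), and Eef2, the translocase, 208508 and 198933 (0.02). Both mitochondrial initiation factors stood higher, Mtif3 with 827 and 1585 counts (1.02) and Mtif2 with 529 and 626 (0.33). The medians of these lists lay between -0.07 and 0.07, apart from the mitochondrial pair (0.68) and the 3 sex-linked initiation factor genes (0.37). With the GC trend removed the median of the elongation list was 0.22 and that of the sex-linked genes 0.11, and at a mean of at least 500 counts that of the poly(A) partners was 0.25.

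**Figure D5:**
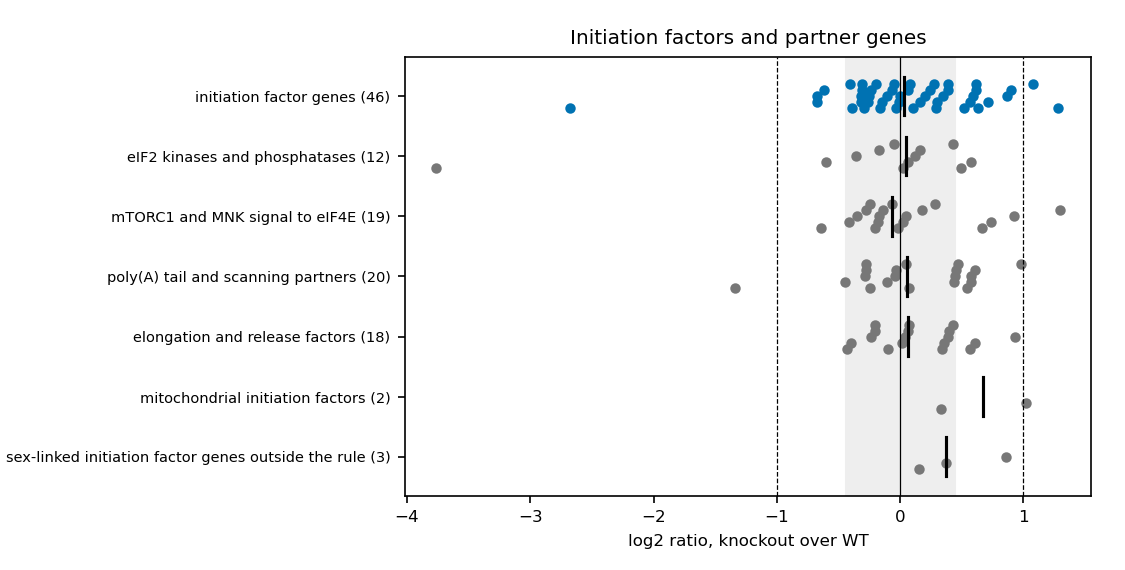
log2 ratio of knockout over WT for each initiation factor gene and each gene of the partner lists (points, number of genes in brackets), with list medians (black bars), 2-fold limits (dashed) and the middle 50% of all genes compared (band); vertical offsets only separate points. The 46 initiation factor genes have a median of 0.03, and single genes such as Impact (-3.76) and Eif3j1 (-2.68) lie far from their lists.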

How the data were processed

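Both tables held raw read counts per Ensembl gene as deposited by the authors, per the file headers: whole numbers, not normalized, for the same 55421 genes. The submitters' processing notes name the build GRCm38 (mm10). Per the labels' protocols, Trizol RNA went into a SMARTER mRNA-Seq kit. The aligner, counter, annotation, strand setting and treatment of multi-mapping reads are not given in the sources used here. Names, positions, exon numbers, transcript GC content and lengths came from GENCODE M21 (GRCm38), which held 55154 of the genes.

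Here, counts were scaled with TMM factors (edgeR 4.0.16, R 4.3.3; 1.02 for WT, 0.982 for the knockout). The log2 ratio had 0.5 reads added. TPM used each gene's longest protein-coding transcript. Intervals are exact conditional (Clopper-Pearson) 95% intervals; PCR copies of a molecule are not told apart, so these cover counting error only. Changes of a ratio between genes have exact conditional odds ratio intervals. No test was possible with 1 library per genotype. The GC trend was a lowess fit (span 0.3, statsmodels 0.14.6) over all genes compared. Shared sequence was counted as 50-base stretches of a gene's GENCODE transcripts found in another gene's, on either strand. The log2 ratio and its interval were tested on simulated counts scaled by total count. TMM scaling, GC trend removal, shared reads and spread between mice were not part of that test.

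Members and lists were chosen with earlier results of these data known. All members were to be named, and the highest and lowest of each partner list; other partner genes, the gene pairs and the promoters shown were picked after values were seen. Alternatives were DESeq2 1.42.0 size factors, total count, other level filters, 5 reads added, other limits, GC trend removal and exon minimums.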

Additional observations from a re-analysis of the deposited data

How the results depend on the processing

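With DESeq2 size factors, 5 reads added, a mean of 500 counts or at least 3 or 5 exons, the counts of members past 2-fold stayed at 2 higher and 1 lower. Without a level filter 3 were higher, the third being Eif5a2 with 12 counts. At a limit of 1.5-fold, 9 were higher and 4 lower. With an interval wholly beyond 2-fold 1 was higher, and with the GC trend removed 1, a different gene (Eif4ebp2). Without the members that share over 10% of their stretches, chosen after seeing the data, 0 were lower. The overall median of 0.03 has no firm sign: it was -0.020 by total count, -0.025 with the GC trend removed and -0.016 without the sharing members. The eIF1 median turned to -0.29 without sharing members and was 0.029 with the GC trend removed. The eIF2 median was 0.041 with the GC trend removed, 0.12 at a mean of 500 counts and 0.21 without sharing members. The eIF5 median was 0.43 without a level filter, and Eif6 came to -0.07 with the GC trend removed. The eIF3 median became 0.11 with the GC trend removed, and 0.00096 at a mean of 500 counts, at either exon minimum or without sharing members. Among the lists, the eIF2 kinase median became -0.0061 by total count, -0.078 with the GC trend removed and -0.049 with at least 5 exons. With the GC trend removed the mTORC1 median became 0.034 that of the poly(A) partners -0.018, that of the elongation list 0.22 and that of the sex-linked genes 0.11. At a mean of 500 counts the poly(A) partners came to 0.25. Scaling by total count moved all genes by -0.05 in log2, and Eif3a alone changed sign under it or DESeq2 factors. No paired analysis was possible because there is 1 library per genotype. Counting error alone put 1 call within reach of the limit, that of Eif2b1 (interval 0.98 to 1.18), and left 5 members with an interval that held 0: Eif3a, Eif3h, Eif3j2, Eif4e2 and Eif4enif1.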
